A study of Mus musculus with 6 samples.

Results

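Immediate early genes were followed in brown adipose tissue (BAT) of mice with and without Letmd1. The set holds 10 genes taken by symbol, namely Fos, Fosb, Jun, Junb, Egr1, Nr4a1, Myc, Dusp1, Ier2 and Ier3, each of which had 1 of the 23282 rows of every count table. The question was how far mice of 1 genotype differed from each other in these genes, compared with the difference between the genotypes. The samples were brown adipose tissue of male C57BL/6N mice, 5 weeks old, 3 wild type (WT) and 3 Letmd1 KO. The KO mice were homozygous for a knockout-first allele made from EUCOMM embryonic stem cells, in which a lacZ and neomycin resistance cassette sits in the intron between exons 2 and 3 of Letmd1, the gene of a protein of the mitochondrial matrix. The allele acts in every cell of the body, so that neither the cell type nor the age at which the gene is lost was set. No cold exposure or drug is given for these samples.

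Immediate early genes are transcribed within minutes of a stimulus, from factors already present in the cell, and need no new protein. Growth factors and stress reach them through MAP kinases and the serum response factor, and adrenergic signals, which drive heat production in brown fat, reach them through cyclic AMP and its response element binding protein. Their messages are decayed quickly, and many of the products are transcription factors or inhibitors of the kinases that switched them on.

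Letmd1 itself had 5658, 6490 and 5266 counts in WT replicates 1 to 3 and 0, 0 and 1 count in Letmd1 KO replicates 1 to 3, at least 1666-fold lower against a floor of 3 counts per library, so that all 6 libraries matched their labels. Libraries held 6669577 to 14574273 counts. Levels are given as CPM, the counts of a gene in a library relative to a fixed total, scaled by TMM, a size factor computed from the bulk of the genes, and a floor of 3 counts equalled 0.176 to 0.397 CPM. Of the brown adipocyte markers, 9 of 12 were lower in Letmd1 KO BAT and none was at 0 in any group, with summed levels of 42299 to 48161 CPM in WT and 13308 to 16705 CPM in KO. All 13 macrophage markers tested were higher, summed from 199 to 270 CPM in WT to 1523 to 3644 CPM in KO, as were all 8 fibroblast markers, from 2192 to 2897 CPM to 5960 to 10322 CPM. Skeletal muscle markers did not follow genotype alone: they summed to 85.5, 522 and 97.9 CPM in WT replicates 1 to 3 and to 480, 373 and 1367 CPM in KO replicates 1 to 3. WT replicate 2 and KO replicate 3 are therefore called the muscle-rich mice of their genotypes. Leaving out both leaves 2 mice of each genotype and does not remove muscle from the comparison. Then 13 of 14 tested muscle markers were higher, at a median log2 fold change of 5.89, in place of 3 and 2.28. In bulk tissue, fewer cells of a type and less RNA per cell cannot be told apart.

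Among the immediate early genes, Fos, Jun and Myc rose in Letmd1 KO BAT and Ier3 fell, whereas Junb, Egr1, Nr4a1, Dusp1 and Ier2 did not pass the test (edgeR's quasi-likelihood test, Benjamini-Hochberg adjusted p under 0.05 over all genes). Fosb was too low to be tested. The 4 that passed are 44.4% of the 9 tested, beside 46.0% of all 12995 genes tested, a share near the background that says nothing particular about the set. For the 3 higher and the 1 lower, the shares over all genes were 23.7% and 22.3%. Fos reached the test only through its KO libraries. The median log2 fold change of the 9 genes was 0.17, beside 0.03 over all genes tested.

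**Figure D1:**
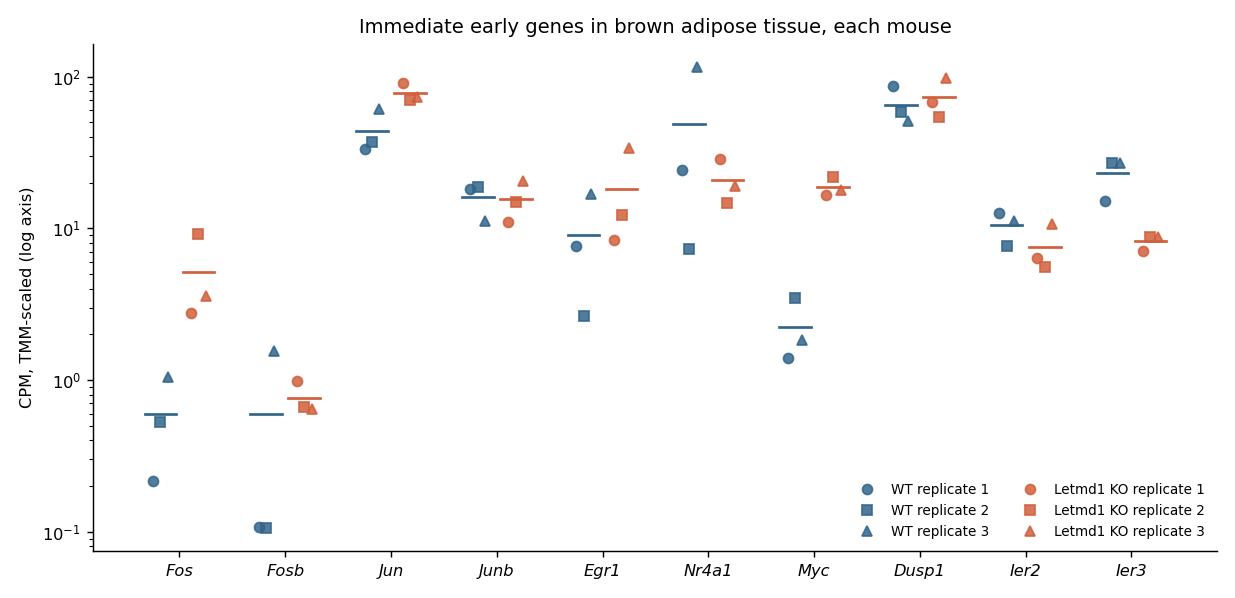
Library-scaled level (CPM, log axis) of each immediate early gene in each mouse, with WT in blue, Letmd1 KO in orange, marker shapes for replicates 1 to 3 and bars for the mean of 3 mice. Fos, Jun and Myc lie higher in all 3 KO mice and Ier3 lower, while Nr4a1 runs from 7.31 to 116 CPM among the WT mice alone.

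The AP-1 genes encode leucine zipper proteins of the FOS and JUN families, which pair with each other to bind DNA. Fos, the classical marker of recent stimulation, had 2, 5 and 8 counts in WT replicates 1 to 3 and 25, 69 and 61 counts in KO replicates 1 to 3, or 0.215, 0.529 and 1.04 CPM against 2.74, 9.12 and 3.58 CPM. Every KO mouse was above every WT mouse, yet all WT values were near the floor and 1 of them was under it. The fitted log2 fold change was 3.10 ± 0.65 (SE, n = 3 and 3, edgeR adjusted p = 0.0040). The summed counts of 15 and 155 give a scaled ratio of 8.10 with a 95% interval from 4.76 to 14.8 that covers counting error only. Under quantile normalization with limma the log2 fold change was 1.96, still past the threshold. The spread within genotypes was wide, with the highest mouse 4.84 times the lowest in WT and 3.32 times in KO. The KO mouse highest in Fos, replicate 2, was also the one with the highest summed macrophage markers (3644 CPM) and fibroblast markers (10322 CPM). KO replicate 1 had more of both markers than KO replicate 3 but less Fos. The part of those cells in the result was not tested.

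Jun, the partner of FOS proteins, lay far above Fos in every mouse, in 3′ counts that do not scale with transcript length. It measured 33.5, 37.2 and 60.7 CPM in WT replicates 1 to 3 and 90.8, 70.3 and 73.7 CPM in KO replicates 1 to 3. The groups did not overlap, although the highest WT mouse, replicate 3, came within 10 CPM of the lowest KO mouse. The fitted log2 fold change was 0.84 ± 0.22 (SE, edgeR adjusted p = 0.0110). The adjusted p was 0.0513 without KO replicate 1 and 0.0813 without the muscle-rich pair, with fold changes of 0.72 and 0.77. Jun overlaps Junos, an antisense transcript with no row in the count tables, and strand use in counting was not stated.

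The starts of Fos and Jun are shown because these are the AP-1 subunits that rose. The sequences are the 250 bases before the RefSeq transcription start, build GRCm38.p6, at chr12:85473640-85473889 on the plus strand for Fos and chr4:95052223-95052472 on the minus strand for Jun. Capitals mark matches, on either strand, to the cyclic AMP response element TGACGTCA, its half-site TGACG (which lies within the full element), the AP-1 site TGAGTCA, the TATA box TATAAA, the GC box GGGCGG and the CArG box bound by serum response factor.
Fos: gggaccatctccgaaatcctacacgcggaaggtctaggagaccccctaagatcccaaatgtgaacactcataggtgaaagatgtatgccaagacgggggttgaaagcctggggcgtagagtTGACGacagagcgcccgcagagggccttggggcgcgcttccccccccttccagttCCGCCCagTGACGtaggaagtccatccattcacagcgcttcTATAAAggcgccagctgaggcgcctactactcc
Jun: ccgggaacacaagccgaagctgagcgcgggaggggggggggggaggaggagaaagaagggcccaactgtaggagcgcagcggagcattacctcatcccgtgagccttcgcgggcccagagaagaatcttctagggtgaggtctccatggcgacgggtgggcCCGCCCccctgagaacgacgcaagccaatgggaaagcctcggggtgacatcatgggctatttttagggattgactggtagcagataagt
The Fos sequence held the half-site 129 and 66 bases and the TATA box 33 bases upstream of the start, and a GC box on the other strand. The Jun sequence held 1 GC box and none of the other motifs.

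Fosb, a FOS family member, was at the limit of detection. Its counts were 1, 1 and 12 in WT replicates 1 to 3 and 9, 5 and 11 in KO replicates 1 to 3, which is 0.108, 0.106 and 1.56 CPM against 0.988, 0.661 and 0.646 CPM. WT replicate 3 was the highest of all 6 mice and the other two WT mice were the lowest and under the floor, so the genotypes overlapped. The scaled ratio of the summed counts, 14 and 25, was 1.40 with a counting interval from 0.700 to 2.91, and a difference was not detectable at this depth.

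Junb, a JUN family protein that can oppose JUN, measured 18.1, 18.8 and 11.2 CPM in WT and 10.98, 14.9 and 20.6 CPM in KO, replicates 1 to 3 in order. Both genotypes covered nearly the same range. The log2 fold change was -0.04 ± 0.27 (SE, edgeR adjusted p = 0.910), and its sign turned with the scaling. On the annotation, the 3′ end of Junb overlaps the 3′ end of Prdx2 on the other strand, which had 1208 to 3102 counts per library, so reads of the overlap could have been given to either gene.

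The 11 listed relatives of these genes among the AP-1 and MAF leucine zipper factors all had a row, and 9 passed the filter on low counts. Of these, 8 were higher in Letmd1 KO BAT and 1 lower, with a median log2 fold change of 1.15, beside 23.7% higher and 22.3% lower of all genes tested. None of the 9 changed sign under any alternative run, and without the muscle-rich pair 7 were higher and 0 lower. Fosl2, a FOS family gene of slower kinetics, measured 36.8, 29.2 and 68.8 CPM in WT and 183, 154 and 250 CPM in KO. It was thus well above Fos in both genotypes by count, with no overlap, and its log2 fold change was 2.13 ± 0.30 (SE, edgeR adjusted p = 0.000469). Jund, the JUN gene that is expressed in resting cells, went from 45.9, 73.9 and 48.6 CPM to 102, 117 and 139 CPM, also without overlap, with a log2 fold change of 1.09 ± 0.19 (SE, adjusted p = 0.00165).

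The other AP-1 and MAF genes that rose were Batf2 (log2 fold change 2.34) and Batf3 (2.45), both low in counts and known from immune cells, Jdp2 (1.15), which encodes a repressor of AP-1, and Maf (1.56), Mafg (0.72) and Mafk (1.07). The 1 that fell was Maff, at -0.71, whose call was lost without any of 4 single mice and under scaling by library size alone. Fosl1 and Batf were too low to be tested. The filter can pass a low gene on the counts of 1 genotype alone, which bears on Batf2 and Batf3 and so on the share that rose. The call of Batf2 was lost without the muscle-rich pair. Macrophage and fibroblast markers rose in the same mice, and how much of these differences comes from such cells was not tested.

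**Figure D2:**
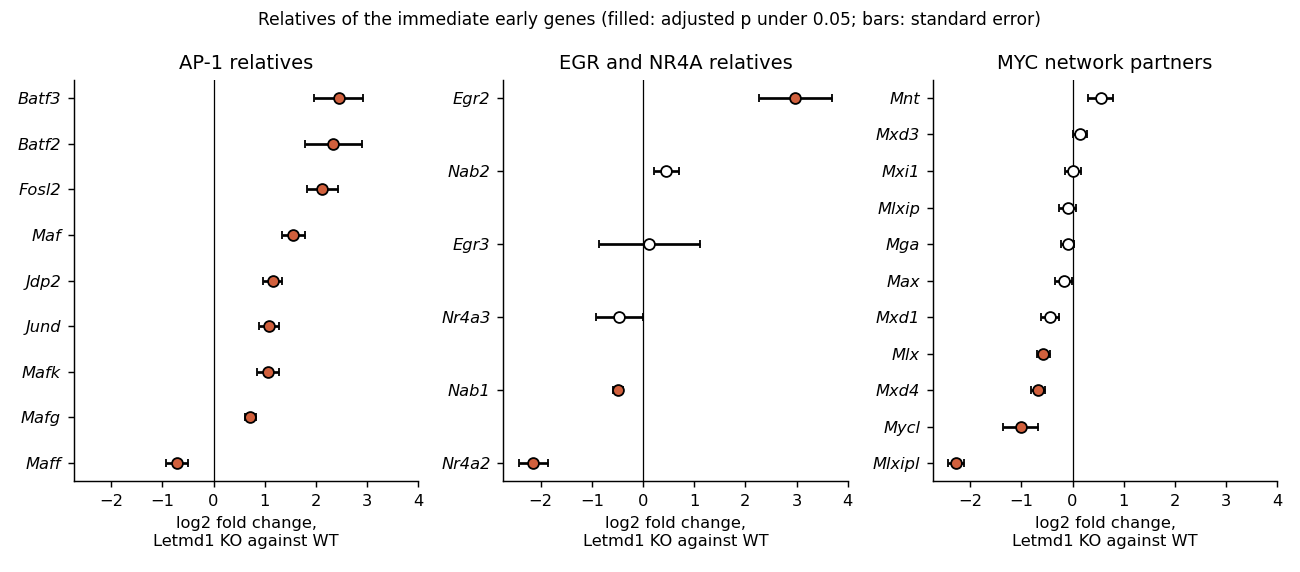
Fitted log2 fold change (x axis, Letmd1 KO against WT, bars for the standard error), filled where the adjusted p was under 0.05. Shown are the tested relatives of the AP-1, EGR and NR4A genes and the tested genes of the MYC network. Higher were 8 of 9 AP-1 relatives, 1 of 6 EGR and NR4A relatives and 0 of 11 genes of the MYC network. Of all genes tested 23.7% were higher, and the differences between the lists were not tested.

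The other transcription factors of the set were Egr1, Nr4a1 and Myc. Egr1, a zinc finger factor induced by growth factor signals, measured 7.64, 2.65 and 16.9 CPM in WT replicates 1 to 3 and 8.34, 12.2 and 33.9 CPM in KO replicates 1 to 3. Of the KO mice, 2 lay inside the WT range and KO replicate 3 was above it. The log2 fold change of 1.05 ± 0.64 (SE) did not pass the test (edgeR adjusted p = 0.208). Without WT replicate 3 it was 1.83 with an adjusted p of 0.0431, and without the muscle-rich pair it was -0.27. The mouse lowest in Egr1, WT replicate 2, and the mouse highest in it, KO replicate 3, are the muscle-rich mice of their genotypes, and the part of muscle in the spread was not tested.

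Nr4a1, a nuclear receptor without a known ligand that adrenergic stimulation induces in fat, varied most. Its levels were 24.2, 7.31 and 116 CPM in WT replicates 1 to 3 and 28.8, 14.7 and 18.9 CPM in KO replicates 1 to 3. The highest and the lowest of all 6 mice were both WT, and the highest was 15.8 times the lowest, whereas the KO mice stayed within 1.96 times of each other. The WT mean was therefore 49.1 ± 58.3 CPM (SD, n = 3), against 20.8 ± 7.23 CPM in KO. The log2 fold change of -1.23 ± 0.76 (SE) did not pass the test (edgeR adjusted p = 0.217). It turned to 0.39 without WT replicate 3 and fell to -1.76, with an adjusted p of 0.0314, without WT replicate 2. Markers of mast cells and neutrophils were also highest in WT replicate 3, at 85.2 CPM against 26.3 and 11.5 CPM in the other WT mice. Among the KO mice these markers were highest in replicate 2, at 82.0 CPM against 51.7 and 39.1 CPM, where Nr4a1 was lowest. The part of these cells was not tested.

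The Nr4a1 start is shown because this gene had the widest spread of the tested set. The window, credited to RefSeq, build GRCm38.p6, is chr15:101266596-101266845 on the plus strand, inside the longer span that GENCODE gives the gene. Capitals mark the same motifs.
Nr4a1: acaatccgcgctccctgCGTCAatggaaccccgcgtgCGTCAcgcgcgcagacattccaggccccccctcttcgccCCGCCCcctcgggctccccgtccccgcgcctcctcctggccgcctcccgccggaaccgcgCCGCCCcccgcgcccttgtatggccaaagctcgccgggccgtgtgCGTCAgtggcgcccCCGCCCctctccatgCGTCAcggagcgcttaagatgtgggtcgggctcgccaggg
It held the half-site 4 times, all on the other strand, the nearest 40 bases upstream, and 3 GC boxes. The gene lies on chromosome 15, as Letmd1 and Myc do, 775105 bases from Letmd1.

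Myc, a basic helix-loop-helix factor of growth and metabolism, separated the genotypes most clearly. It had 13, 33 and 14 counts in WT and 150, 165 and 303 counts in KO, or 1.40, 3.49 and 1.82 CPM against 16.5, 21.8 and 17.8 CPM in replicates 1 to 3. The KO mice were close together, within 1.32 times, and all far above the WT mice. The log2 fold change was 3.04 ± 0.32 (SE, edgeR adjusted p = 7.96e-05), and it passed in all 14 alternatives, between 2.71 and 3.55. The scaled ratio of the summed counts was 8.07, with a counting interval from 6.19 to 10.7. Like Fos, it was highest in KO replicate 2, the mouse richest in macrophage and in fibroblast markers. Jun was lowest of the KO mice there. KO replicate 1 had more of both markers than KO replicate 3 but less Myc. The part of those cells was not tested.

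The other tested genes of the MYC network, among them relatives and antagonists of MYC, did not rise with it. Of 11, none was higher and 4 were lower, beside 23.7% and 22.3% of all genes tested. The median log2 fold change of the 11 was -0.17, although under scaling by library size alone 3 were higher and 1 lower. The lower ones were Mlxipl (-2.27), the carbohydrate-responsive factor that switches on fat synthesis, Mycl (-1.01), Mxd4 (-0.68), an antagonist of MYC, and Mlx (-0.57), the partner of the Mlxipl product. The calls of Mycl, Mxd4 and Mlx were lost under scaling by library size alone, and that of Mycl also without any of 4 single mice and without the muscle-rich pair. Mnt (0.55), Mxd3 (0.14), Mxi1 (0.014), Mlxip (-0.09), Mga (-0.10) and Mxd1 (-0.44) did not pass. Max, the obligate partner of MYC, measured 92.1 to 144 CPM in WT and 97.9 to 115 CPM in KO, with a log2 fold change of -0.17 ± 0.16 (SE, edgeR adjusted p = 0.413).

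Of the EGR and NR4A relatives 1 of 6 was higher and 2 were lower, beside 23.7% and 22.3% of all genes tested. Their median log2 fold change of -0.17 turned to 0.25 under scaling by library size alone. Egr2, at 0, 5 and 10 counts in WT and 37, 48 and 64 counts in KO, reached the test, like Fos, only through its KO libraries. Its log2 fold change was 2.98 ± 0.72 (SE, edgeR adjusted p = 0.00817), a call that was lost without the muscle-rich pair. Nr4a2 measured 43.9, 40.9 and 86.5 CPM in WT and 13.6, 12.8 and 12.3 CPM in KO, and its log2 fold change was -2.14 ± 0.28 (SE, adjusted p = 0.000273). It did not overlap between genotypes, unlike Nr4a1, and the difference between the changes of these genes was not tested. Nab1, a co-repressor of EGR proteins, was lower at -0.49, a call that was lost under scaling by library size alone, under quantile normalization and without the muscle-rich pair. Egr3 (0.12), Nr4a3 (-0.46) and Nab2 (0.45) did not pass, and Egr3 had its highest level, 4.56 CPM, in WT replicate 3, as Egr1 and Nr4a1 did among the WT mice.

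The last group holds a kinase phosphatase and the IER genes. Dusp1, the phosphatase that switches MAP kinases off again, measured 86.6, 58.5 and 50.9 CPM in WT replicates 1 to 3 and 67.8, 53.8 and 98.2 CPM in KO replicates 1 to 3. The ranges overlapped almost wholly. The log2 fold change was 0.17 ± 0.25 (SE, edgeR adjusted p = 0.601), and it turned to -0.10 without KO replicate 3. Ier2, a nuclear protein of proliferating cells, measured 12.7, 7.62 and 11.2 CPM in WT and 6.37, 5.55 and 10.7 CPM in KO. KO replicate 3 lay among the WT mice and the other KO mice below them. Its log2 fold change of -0.45 ± 0.30 (SE) did not pass (adjusted p = 0.251), but without the muscle-rich pair it was -1.01 with an adjusted p of 0.0357.

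Ier3, a stress-induced gene linked to cell survival and ERK signalling, was the member that fell. It measured 15.2, 26.8 and 27.0 CPM in WT replicates 1 to 3 and 7.13, 8.72 and 8.81 CPM in KO replicates 1 to 3. The KO mice agreed within 1.23 times and all lay below the lowest WT mouse. The log2 fold change was -1.48 ± 0.24 (SE, edgeR adjusted p = 0.00105), and it passed in all 14 alternatives, between -1.71 and -1.06.

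Dusp1 and Ier3 are shown as the member with a full cyclic AMP response element and the member that fell. The 250 bases before their RefSeq starts, build GRCm38.p6, are chr17:26508473-26508722 on the minus strand and chr17:35821463-35821712 on the plus strand, with capitals as above.
Dusp1: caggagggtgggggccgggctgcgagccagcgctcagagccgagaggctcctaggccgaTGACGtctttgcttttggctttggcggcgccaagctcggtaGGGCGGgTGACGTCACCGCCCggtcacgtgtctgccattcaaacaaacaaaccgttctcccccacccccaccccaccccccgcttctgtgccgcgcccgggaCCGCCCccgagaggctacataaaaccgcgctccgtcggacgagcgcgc
Ier3: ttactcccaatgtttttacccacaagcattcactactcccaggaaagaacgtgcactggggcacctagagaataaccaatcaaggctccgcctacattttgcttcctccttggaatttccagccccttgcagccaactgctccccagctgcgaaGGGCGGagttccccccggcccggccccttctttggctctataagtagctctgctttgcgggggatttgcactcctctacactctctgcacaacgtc
Dusp1 held the full element 143 bases upstream, between GC boxes, and Ier3 held 1 GC box. Windows of 300 bases, with 50 bases from the start on, were searched for 7 of the 10 genes, all but Egr1, Myc and Ier2. The full element was in 1 of these 7 and in 1.79% of the 32851 windows of the table, the half-site in 5 and 20.8%, the TATA box in 2 and 13.6%, and the GC box in 6 and 35.7%. The AP-1 site (5.20% of all windows) and the CArG box (1.63%) were in none of the 7 windows, and sequence further upstream was not searched. A match describes the letters and shows no binding.

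Set against the spread among mice, the genotype difference was the larger quantity for 4 of the 9 tested members. This share was near that of all genes tested. On the log2 CPM scale, the difference between genotype means was 2.51 times the larger within-genotype range for Myc, 1.73 times for Ier3, 1.63 times for Fos and 1.03 times for Jun. It was 0.537 times for Ier2, 0.416 for Egr1, 0.314 for Fosb, 0.183 for Dusp1, 0.115 for Nr4a1 and 0.0662 for Junb. In these 6 genes, mice of the same genotype thus lay further apart than the genotype means, for Fosb in WT only. The difference exceeded the larger range in 44.4% of the tested members and in 46.7% of all genes tested. The genotypes did not overlap for 4 of the 9 tested members, beside 57.3% of all genes tested.

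**Figure D3:**
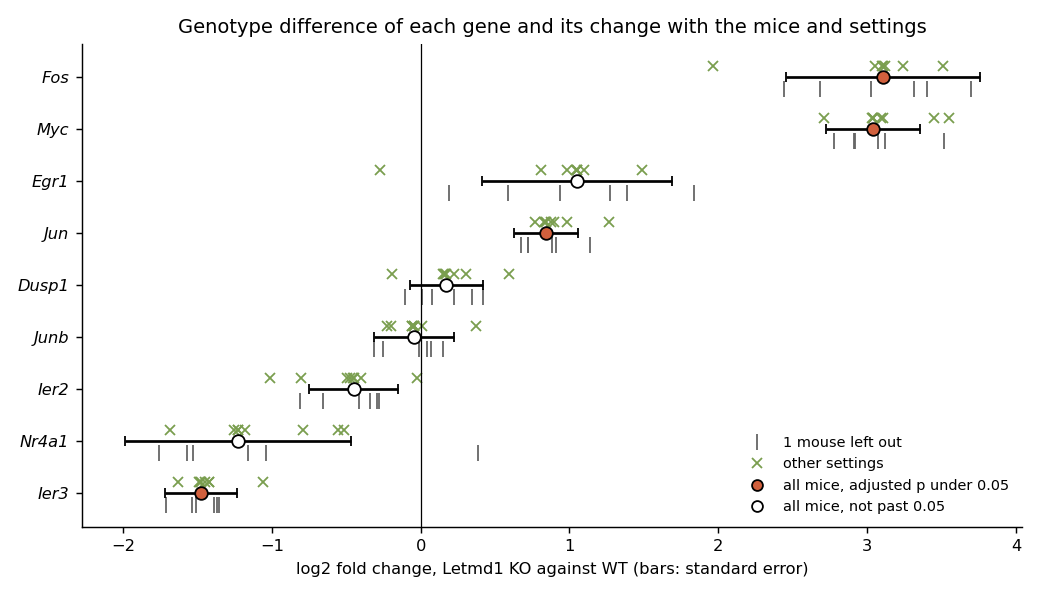
Fitted log2 fold change of the 9 tested genes (x axis, Letmd1 KO against WT), as circles with standard errors, filled where the adjusted p was under 0.05, above ticks for the fits with 1 mouse left out and below crosses for the other settings. Nr4a1 runs from -1.76 to 0.39 and Egr1 from -0.27 to 1.83, whereas Ier3 stays between -1.71 and -1.06.

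All 9 tested members had a within-genotype SD of log2 CPM above the median of all genes tested, which was 0.23, and their own median was 0.43. Nr4a1 (SD 1.44) stood at the 99.6th percentile of all genes tested and at the 99.9th among the 1000 genes nearest to it in level. Egr1 (1.17) stood at 99.1 and 99.2. The members with little or no genotype difference were still variable for their level, with Dusp1 at 95.9, Junb at 91.4 and Ier2 at 81.9 among their 1000 neighbours. Of the members that passed the test, Jun was at 94.5, Fos at 86.0, Ier3 at 82.0 and Myc at 78.7 on the same scale. These percentiles are descriptions of 9 genes from the same 6 mice.

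**Figure D4:**
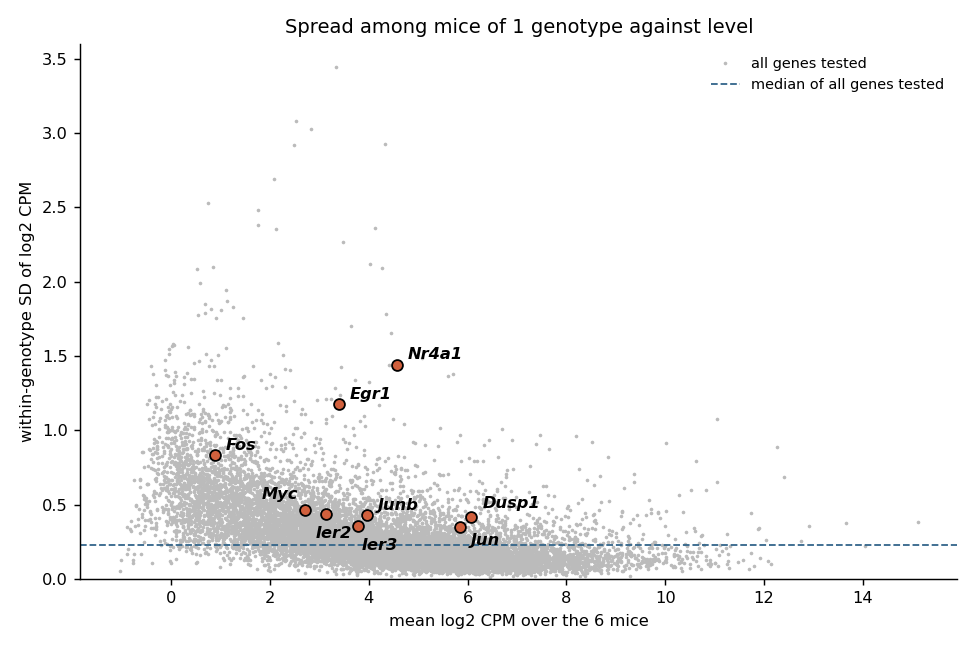
Within-genotype SD of log2 CPM (y axis) against mean log2 CPM over the 6 mice (x axis) for all 12995 genes tested in grey, with the 9 tested immediate early genes in orange and the median of all genes, 0.23, dashed. Nr4a1 at 1.44 and Egr1 at 1.17 stand above almost all genes of like level, and all 9 lie above the dashed line.

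The members did not share 1 order of mice. WT replicate 3 was the highest WT mouse for 6 of the 10 genes (Fos, Fosb, Jun, Egr1, Nr4a1 and Ier3) but the lowest for Junb and Dusp1. Among the KO mice, replicate 3 was highest for 5 genes (Junb, Egr1, Dusp1, Ier2 and Ier3) and lowest for Fosb. That mouse also had the highest muscle markers (1367 CPM) and the deepest library. Over the 9 tested genes, WT replicate 3 was the highest WT mouse in 55.6%, beside 37.3% of all genes tested, and KO replicate 3 the highest KO mouse in 55.6%, beside 31.6%.

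The 5 non-member genes nearest to the mean profile of the 9, among 10303 candidates, were Tmem64, Shtn1, Gpn2, Rundc3a and Jak2, with root mean square differences of 0.0880 to 0.119 on the log2 scale over the 6 mice. For single members the nearest gene was Sirt5 for Ier3 (0.0820), Nt5c3b for Jun (0.0921), Vamp1 for Dusp1 (0.108), Zfpm1 for Junb (0.126), Btbd3 for Ier2 (0.147), Plcl2 for Myc (0.202), Cd53 for Fos (0.309), Fzd2 for Egr1 (0.518) and E2f2 for Nr4a1 (0.579).

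Of the other immediate early genes, 39 of a list of 40 were tested, and 13 were higher and 12 lower, beside 23.7% and 22.3% of all genes tested. They had a median log2 fold change of -0.05 that turned to 0.37 under scaling by library size alone and to 0.09 under quantile normalization. The largest rises were in Gadd45a (5.19), a stress-induced inhibitor of the cell cycle, and Atf3 (4.93), an AP-1-related factor of the integrated stress response. Atf3 measured 1.16 to 2.21 CPM in WT and 49.5 to 55.6 CPM in KO, so that its KO mice differed far less from each other than from WT. The largest falls were in Trib1 (-2.45), a pseudokinase, and Pim1 (-1.93), a survival kinase, which went from 344 to 419 CPM down to 75.4 to 126 CPM.

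Around Dusp1, 4 of 10 tested MAP kinase phosphatases were higher and 4 lower, beside 5 and 0 under scaling by library size alone and 1 and 3 under quantile normalization. For this list and those that follow here, the shares over all genes tested were 23.7% higher and 22.3% lower. Dusp8 (3.14) and Dusp2 (1.35) rose, and Dusp6 (-1.16) and Dusp4 (-1.04) fell, the calls of Dusp2, Dusp4 and Dusp6 being lost without single mice. Of 7 feedback inhibitors of the ERK pathway, Dusp6 and Dusp7 (-0.79) fell and the others did not pass, but under scaling by library size alone 2 were higher and 0 lower, and both calls were lost. Of 27 upstream kinases and factors, 6 were higher and 4 lower, beside 13 and 0 under scaling by library size alone. Mkl1 (1.17), a co-activator of serum response factor, and Rps6ka1 (0.87), a kinase below ERK, were the most raised, and Map2k2 (-0.54) and Mapk14 (-0.49) the most lowered. Rps6ka1 and Mapk14 lost their calls without single mice. Of 14 genes that bind or decay AU-rich messages, Btg2 (0.68) rose and Zfp36l2 (-0.41) fell, and neither passed under quantile normalization. Under scaling by library size alone 8 of these were higher and 0 lower, and the call of each was lost without any of 3 single mice.

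Genes that cyclic AMP induces in brown fat were lower or did not pass. Of 11 tested, 0 were higher and 5 lower, beside 23.7% and 22.3% of all genes tested (46.0% in either direction). Their median log2 fold change was -0.52. The largest falls were in Ucp1 (-4.05), the uncoupling protein of heat production, and Ppp1r3c (-2.76), which promotes glycogen storage. Under scaling by library size alone 2 were higher and 5 lower, with a median of -0.10. The brown adipocyte markers, which share Ucp1, Dio2 and Ppargc1a with this list, fell in the same mice (9 of 12, summed from 45591 to 14748 CPM on average), and the part of brown adipocytes in the result was not tested. Of 10 heat shock genes, set beside the same shares of all genes, Hspa5 (1.12) and Hsp90aa1 (0.64) rose and Hspe1 (-0.57) fell. The last did not pass under scaling by library size or quantiles. The Hspa5 product is the chaperone of the endoplasmic reticulum and the Hspe1 product one of mitochondria. The inducible Hspa1a (0.45) and Hspa1b (-0.54) did not pass. They are near-identical copies, so reads could have been given to either gene, which was not examined.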

How the data were processed

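RNA of brown adipose tissue from 3 WT and 3 Letmd1 KO mice was sequenced from the 3′ end (QuantSeq), so counts do not scale with transcript length. The authors aligned reads to mm10 with Bowtie2 and counted with bedtools, per the labels and the study's methods, from unique and multiple alignments. They deposited 1 table of raw counts per mouse. Versions, annotation and strand use are not given in the sources used here. Depth was 6669577 to 14574273 counts per library. Of 23282 rows, 12995 passed edgeR's filter (minimum count 10, minimum total 15). TMM scaling and edgeR 4.0.16 quasi-likelihood tests were run in R 4.3.3 with genotype as the only term, and p-values were Benjamini-Hochberg adjusted over all genes tested, with a threshold of 0.05. The standard error is the fold change divided by the root of F. Log2 CPM used a prior count of 2. The script for the tests was tested on simulated counts.

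The members, gene lists and named genes were chosen with earlier results of these data known. Named genes were all members, Letmd1, Atf3, the genes nearest in pattern, the tested AP-1, EGR, NR4A and MYC relatives, and up to 2 genes with the largest rise and 2 with the largest fall, past the threshold, in the other lists. Outside this rule, Prdx2 and Junos were named for their overlaps, and Hspa1a, Hspa1b and the genes of the closing observation after their values were seen. A further listed gene is not reported here and was left out of its list's counts and median. The labels number the mice but give no litter or batch, and p-values set the genotype difference against the spread among these mice. Gene positions and overlaps came from GENCODE vM21 on GRCm38. RefSeq promoter windows of GRCm38.p6 were used for 7 of 10 members. No pairing by replicate number was seen: the deviations of same-numbered mice correlated at 0.0691, -0.111 and -0.0865. With so few mice this cannot exclude a shared litter or batch. Alternatives were library size alone, quantile normalization with limma 3.58.1, DESeq2 1.42.0, other filters, a robust fit, the replicate block, each mouse left out, and, chosen after seeing the data, both muscle-rich mice left out. Replicates of 1 genotype differed by far more than counting noise (chi-square per degree of freedom 11.5 to 34.0).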

Additional observations from a re-analysis of the deposited data

How the results depend on the processing

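Fos, Myc and Ier3 passed the threshold in the same direction under every alternative that gave them a value (13, 14 and 14), and Jun under 12 of 14. Junb changed sign, to 0.37 under scaling by library size alone, 0.011 where genes needed a mean count of 50, and 0.04, 0.07 and 0.15 without WT replicate 1, WT replicate 2 and KO replicate 1. Its range with single mice left out was -0.32 to 0.15, that of Nr4a1 -1.76 to 0.39 and that of Dusp1 -0.10 to 0.42. Egr1 turned to -0.27 and Dusp1 to -0.19 without the muscle-rich pair, and Dusp1 also without KO replicate 3 and Nr4a1 without WT replicate 3. The causes were not tested. The number of members lower was 2 without the muscle-rich pair and 1 to 2 with single mice left out, the 2 being without WT replicate 2. With the replicate block 5 members passed, Egr1 (1.04, adjusted p = 0.0386) being added, and the numbers did not pair the mice. The median of the members ran from 0.04 to 0.43 with single mice left out and was -0.20 without the muscle-rich pair. Scaling by library size alone moved it to 0.59 and the median of all genes tested to 0.45, with 5891 genes higher and 1371 lower in place of 3082 and 2897. Without the muscle-rich pair, with 2 mice of each genotype, 3889 genes passed in place of 5979. Fos and Fosb lie near the floor in WT, where depth limits their ratios. Fos has no value where a mean of 50 was needed.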

Other observations

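Several genes of the lists stood apart in WT replicate 3 when set against the other WT mice, and they were picked after their values were seen. Higher there than in the other WT mice were Nr4a1, Nr4a2, Egr1, Egr3, Fosb and Sik1, the gene of a kinase that cyclic AMP induces. Sik1 measured 27.5 CPM against 9.48 and 9.42 CPM, while Egr1 was higher still in KO replicate 3. Dio2, the thyroid hormone activating deiodinase of brown fat, was lower there than in the other WT mice, at 161 CPM against 839 and 431 CPM. So was Nr4a3, at 7.29 CPM against 30.3 and 20.1 CPM. Zfp36l1 was also the highest of the WT mice in it, at 173 CPM against 72.8 and 78.0 CPM, as was Dusp10, at 40.0 CPM against 9.80 and 14.9 CPM. In the KO mice Dusp10 measured 25.6 to 26.0 CPM and Sik1 11.2 to 13.6 CPM. Over all 39 tested genes of the wider immediate early list, WT replicate 3 was the highest WT mouse in 35.9% and the lowest in 41.0%, beside 37.3% and 36.3% of all genes tested.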
